A study of Mus musculus with 15 samples.

Results

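Scrambled-hairpin control cells are described here from 6 of the 15 arrays of a study that knocked down Tet1 or Sin3A in mouse embryonic stem cells. The 6 arrays were chosen by the hairpin that the labels name, and no measured value was used. The study has 5 groups of 3 arrays, of which 2 are controls. The control group of the Tet1 set was deposited with the arrays of Tet1 shRNA 4 and Tet1 shRNA 5, and the control group of the Sin3A set with the arrays of a Sin3A shRNA. They are called the Tet1-set controls and the Sin3A-set controls below.

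All groups shared the line, the culture and the way the hairpin was delivered, as far as the labels say. The cells were E14TG2a.4, a line of mouse embryonic stem cells that grows without a layer of feeder cells, at passage 17. They were kept on plates coated with 0.1% gelatin in Glasgow medium with 15% foetal bovine serum, 50 µM mercaptoethanol and leukaemia inhibitory factor (LIF), a cytokine that holds these cells in an undifferentiated state. A lentivirus made in 293FT cells carried a short hairpin RNA (shRNA), and puromycin at 2 µg per ml was given from 36 hours after infection for 72 hours. A scrambled hairpin has no intended target, so both control groups carry the virus, the resistance gene and the drug exposure, but no intended knockdown. Both groups stand for 1 line and for 1 kind of control hairpin, and no uninfected cells were analysed here. The labels do not state whether the 3 arrays of one group are separate cultures, and the p-values below therefore rest on a spread between arrays that may be technical alone.

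Mouse embryonic stem cells are held in self-renewal by a network of transcription factors around Oct4 (Pou5f1), Sox2 and Nanog. In serum with LIF, signalling through STAT3 and the Id proteins supports this network, while FGF signalling through MAP kinase moves cells towards the formative state, the step of the early epiblast that precedes commitment to a lineage. Cultures in serum are known to be mixed, with cells at different points along this path. Such control cultures are the reference against which every knockdown in a study of this kind is read.

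Each value below is a percentile rank. Within each array all 21212 probe sets were ordered by their deposited log2 value, and the rank runs from near 0 for the lowest to 100 for the highest. Ranks were used because the deposited columns of both sets lay on different scales, with column means of 7.08 to 7.11 in the Tet1-set controls and 8.09 in the Sin3A-set controls, and a rank does not move when a whole column is rescaled. A rank still mixes the amount of an RNA with the brightness of its probes. Rps6, a ribosomal protein gene that every cell uses, ranked at 23.4 ± 6.7 in the Tet1-set controls and 18 ± 3.8 in the Sin3A-set controls (mean ± SD, n = 3 arrays, as throughout), and Cycs, which encodes cytochrome c, ranked at 19 and 25.1. A low rank therefore does not show that a gene is off, and the order of 2 genes within an array is not an order of their RNA amounts. The arrays give no detection call, so 1259 probe sets of olfactory and vomeronasal receptors, which have no known role in these cells, served as a reference. Their median rank was between 7.34 and 7.66 in the 6 arrays, and the 95th percentile of their ranks, called the receptor level here, lay between 29.0 and 32.2. A total of 13914 probe sets (65.6%) were above that level in all 6 arrays. Of the 21212 probe sets, 18786 had exactly 1 gene symbol, 6 had several and 2420 had none.

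The 6 arrays resembled each other closely. Spearman's correlation of ranks across probe sets, which are not independent of each other, was 0.994 to 0.998 within the Tet1-set controls, 0.997 to 0.998 within the Sin3A-set controls and 0.987 to 0.990 between them. Replicate 2 of the Tet1-set controls stood apart from its group, with correlations of 0.9941 and 0.9947 against 0.9978 between the other two. The set, and with it any difference in culture, infection, scan or normalization, is the same split as the 2 control groups, so these cannot be told apart in anything that follows.

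The genes that define the cells by name were near the top of every array. All 14 measured members of a list of core pluripotency factors were above the receptor level in all 6 arrays, and 11 of them ranked at 90 or more in both groups, against 9.07% of all probe sets. The median rank of the list was 98.6 in the Tet1-set controls and 98.4 in the Sin3A-set controls. Nanog, a homeodomain factor that stabilises the undifferentiated state, ranked at 99.5, 99.3 and 99.5 in the Tet1-set controls and at 99.5, 99.4 and 99.3 in the Sin3A-set controls. Pou5f1, the POU factor Oct4, ranked at 99, 99.2 and 99.2 and at 99.1 in all 3 arrays of the Sin3A set. Sox2, the partner of Oct4 on DNA, ranked at 99.1, 98.8 and 99 and at 98.8, 98.9 and 98.8. The groups overlapped for all 3 genes. Tdgf1, a co-receptor for Nodal, Sall4, a zinc finger partner of Oct4, and Trim28, a co-repressor that silences retroviral elements, were also above 98 in both groups, at 99.5 and 99.2, 98.8 and 98.9, and 99.7 and 99.7.

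The promoters of Nanog and Sox2 are shown because both genes sat at the top of the arrays while their start sites differ in base composition, and that of Hprt because the gene bears on a feature of the line given below. Each is the RefSeq window on GRCm38.p6 of 250 bases before and 50 bases after the annotated start. For Nanog it is the first of 2 entries, chr6:122707239-122707538, for Sox2 chr3:34649745-34650044 and for Hprt chrX:52987828-52988127, each on the plus strand. Capitals mark ATGCAAA or its reverse complement TTTGCAT in Nanog and Sox2, a form of the octamer that POU factors such as Oct4 are known to bind, and every CG in Hprt.
Nanog: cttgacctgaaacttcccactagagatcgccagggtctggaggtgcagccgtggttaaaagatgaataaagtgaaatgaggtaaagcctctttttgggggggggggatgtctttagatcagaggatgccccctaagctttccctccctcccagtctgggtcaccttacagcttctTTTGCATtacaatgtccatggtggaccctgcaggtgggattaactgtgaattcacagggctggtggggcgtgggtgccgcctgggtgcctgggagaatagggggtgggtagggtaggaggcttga
Sox2: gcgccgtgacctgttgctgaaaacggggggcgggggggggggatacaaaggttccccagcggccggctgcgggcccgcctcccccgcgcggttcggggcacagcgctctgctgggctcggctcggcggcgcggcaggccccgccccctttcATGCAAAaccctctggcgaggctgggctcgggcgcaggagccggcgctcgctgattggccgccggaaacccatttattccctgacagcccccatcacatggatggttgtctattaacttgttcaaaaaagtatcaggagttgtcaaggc
Hprt: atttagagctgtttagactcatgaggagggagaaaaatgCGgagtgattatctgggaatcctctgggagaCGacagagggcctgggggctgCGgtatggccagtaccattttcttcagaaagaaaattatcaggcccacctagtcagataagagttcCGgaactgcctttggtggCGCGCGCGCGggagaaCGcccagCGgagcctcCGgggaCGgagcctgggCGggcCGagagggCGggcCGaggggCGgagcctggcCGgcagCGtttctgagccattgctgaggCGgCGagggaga
The Nanog window holds 4 CpG and the Sox2 window 27, and both hold 1 copy of the octamer form. It begins 75 bases before the start in Nanog, 151 before that of the second Nanog entry, and 99 before the start in Sox2. The search covered both strands, and 4.15% of the 15057 genes with a probe set and a promoter entry, and 4.63% of all 32851 promoters of this length, held it. A match is a run of letters and not a measured site.

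Across genes, the base composition at the start site varied with the baseline rank. A promoter entry was used for 15057 of 18786 probe sets with 1 symbol (80.2%), and all probe sets were split into 10 bins of equal size by their mean rank over the 6 arrays, bin 1 being the lowest. In bins 2, 3, 4, 6 and 7 only 75.9% to 80.0% of genes had an entry, and the check is void there. Bin 1 had a median of 1 CpG per window, bin 5 had 16, and bins 8, 9 and 10 had 22, 23 and 24. The receptor genes used as a reference had a median of 1. They are not separate from bin 1, in which 772 of 2122 probe sets were receptor probe sets. The letters TATAAA, on either strand, were found in 35.4% of promoters of bin 1 and in 6.96% of bin 10, against 40.3% of the receptor genes and 12.4% of all genes with an entry. The octamer form was found in 8.57% of bin 1 and 2.83% of bin 10. These are descriptions across genes, which share sequence families and are not replicates.

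Genes of the naive state, the condition closest to the inner cell mass, were also high, with a wider spread. All 19 measured members were above the receptor level, 13 ranked at 90 or more in both groups, and the list median was 93.4 in the Tet1-set and 93.9 in the Sin3A-set controls. Dppa5a, an RNA-binding protein of the early embryo, was among the 12 genes with the highest ranks of all, at 99.9 or more in every array. Klf5 (99.3 and 99.4), the nuclear receptor genes Nr0b1 (99.6 and 99.4) and Esrrb (97.5 and 97.1), and Zfp42 (91.4 and 90.5), which encodes Rex1, all ranked above 90 in both groups. Dppa3, also called Stella, a protein that protects DNA methylation in the early embryo and is known to be present in only some cells of a serum culture, was the lowest member. It ranked at 46.6, 50.0 and 57.2 in the Tet1-set controls and at 49.3, 48.2 and 45.0 in the Sin3A-set controls, and the groups overlapped.

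Genes of the formative state were present at intermediate ranks. All 16 measured members were above the receptor level, but only 1, Zic2, ranked at 90 or more in both groups (98.2 in each). The list median was 76.6 in the Tet1-set and 74.5 in the Sin3A-set controls. Otx2, a factor that directs enhancer use in the epiblast, ranked at 87.4 and 85.4, and Fgf5, the usual marker of this state, at 58.6 and 41.8.

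Components of the pathways that the medium acts on were well above the receptor level. Of 16 genes of the LIF receptor and STAT3 pathway, 15 were above it in all arrays, the exception being the kinase gene Jak2, which was below it only in replicate 2 of the Tet1-set controls, at 30.3. The receptor subunits Lifr (85.7 and 87.3) and Il6st (92.5 and 92.5) and the transcription factor gene Stat3 (91.6 and 92.8) were high. Of the serum-responsive Id genes, which encode inhibitors of differentiation factors, Id1 ranked at 90.9 and 89.3, Id2 at 95.6 and 94.2, Id3 at 68.2 and 63.8 and Id4 at 51.5 and 49.0. Bmp4 (95.8 and 96.1), a ligand that induces them, was high as well.

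The genes the study knocks down in its other arrays were high in these controls. Tet1, a dioxygenase that oxidises methylated cytosine, ranked at 99.1, 99 and 99.1 in the Tet1-set controls and at 98.8, 98.8 and 98.6 in the Sin3A-set controls. Sin3a, the scaffold of a histone deacetylase complex, ranked at 91.4, 91.4 and 91.1 and at 89.2, 90.3 and 89.8. The groups did not overlap for either gene, but neither difference passed the test described below (Tet1, -0.35 ± 0.39 points, mean ± SE, limma adjusted p = 0.535; Sin3a, -1.53 ± 0.49 points, limma adjusted p = 0.0614). Both were called when the 6 columns were quantile-normalized together in place of ranked (Tet1, -0.20 on the log2 scale, limma adjusted p = 0.0283; Sin3a, -0.18, limma adjusted p = 0.0468), so the outcome depends on the scale. In the arrays of Tet1 shRNA 4 and 5, Tet1 lay between 92.0 and 92.6 and between 88.4 and 90.5. In the Sin3A shRNA arrays Sin3a lay between 69.9 and 71.1, so in both sets the controls were above the arrays labelled as knockdowns of that gene.

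Lists of chromatin regulators typical of these cells had high medians, with some members far lower. In a list of TET and DNA methylation genes, 18 of 19 members were above the receptor level and 11 ranked at 90 or more in both groups, among them Dnmt3l (98.3 and 98), a cofactor of the de novo methyltransferases, and Dnmt1 (95.3 and 95.7), which copies methylation at replication. The exception, the glycosylase gene Tdg, ranked at 1.83 and 6.63, below the median of the receptor probe sets, and as with Rps6 this does not show that the gene is off. Of 22 Polycomb genes, whose products mark and silence developmental genes, 21 were above the receptor level, led by Jarid2 (99.5 and 99.3), Phc1 (98.8 and 99) and Ezh2 (98.7 and 98.6). The list median was 84.2 and 81.2, and 10 of the 22 ranked at 90 or more in both groups. Of 15 genes of the embryonic stem cell form of the BAF remodeller, 13 were above the receptor level. Their list median was 80.1 and 79.5, and 7 of them ranked at 90 or more in both groups. Smarca4, the ATPase subunit used in embryonic stem cells, ranked at 96.9 and 96.2, and Smarca2, its alternative in differentiated cells, at 31.1 and 37.2. Actl6a and Actl6b, an exchange known from neurons, ranked at 99.5 and 99 and at 29.9 and 32.9.

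Genes of rapid division and of glycolysis were high in both groups. The 12 genes with the highest ranks in all arrays were Eef1a1, Actb, Txn1, H3c4, H4c4, Eef2, H2ac15, Dppa5a, Rplp1, Tubb5, Slc25a5 and Pabpc1, which are translation, cytoskeleton, histone, redox and mitochondrial transport genes apart from Dppa5a. The list medians were 95.5 and 94.9 for 17 cyclins and kinases of the cell cycle, 96.2 and 95.3 for 17 DNA replication genes, 96.0 and 94.9 for 13 glycolysis genes and 92.6 and 92.6 for 20 subunits and carriers of the respiratory chain. The inhibitors of the cell cycle and the RB family were lower, with list medians of 73.5 and 74.2 over 12 genes.

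List medians for markers of other cell types were in the lower or middle ranks. The 37 measured Hox genes had a list median of 28.4 in both groups, none had a mean rank above 54.6 in either, and 13 of them were above the receptor level in all 6 arrays. List medians were 48.7 and 48.8 for 19 primitive endoderm genes, 40.9 and 40.2 for 16 genes of the primitive streak, 53.9 and 48.4 for 15 neuroectoderm genes, 52.6 and 58.3 for 17 trophectoderm genes and 28.8 and 30.7 for 15 muscle and liver genes, against 50.0 for all probe sets. Above the receptor level in all 6 arrays were 15 of 19 primitive endoderm genes (78.9%), 14 of 17 trophectoderm genes (82.4%) and 11 of 16 primitive streak genes (68.8%). The share was 60% for neuroectoderm and 33.3% for muscle and liver genes, against 65.6% of all probe sets. Gata4 (50.7 and 52.1) and Gata6 (50.9 and 48.8), the factors that direct primitive endoderm, sat at the middle of the arrays, and Sox17 (31.9 and 34.4) near the receptor level. Among the matrix genes that primitive endoderm secretes, Lamc1 (95.6 and 95.1) and Sparc (96.4 and 98.1) were high. The trophoblast factor Cdx2 ranked at 37.0 and 35.2 and Eomes at 48.7 and 46.6.

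**Figure D1:**
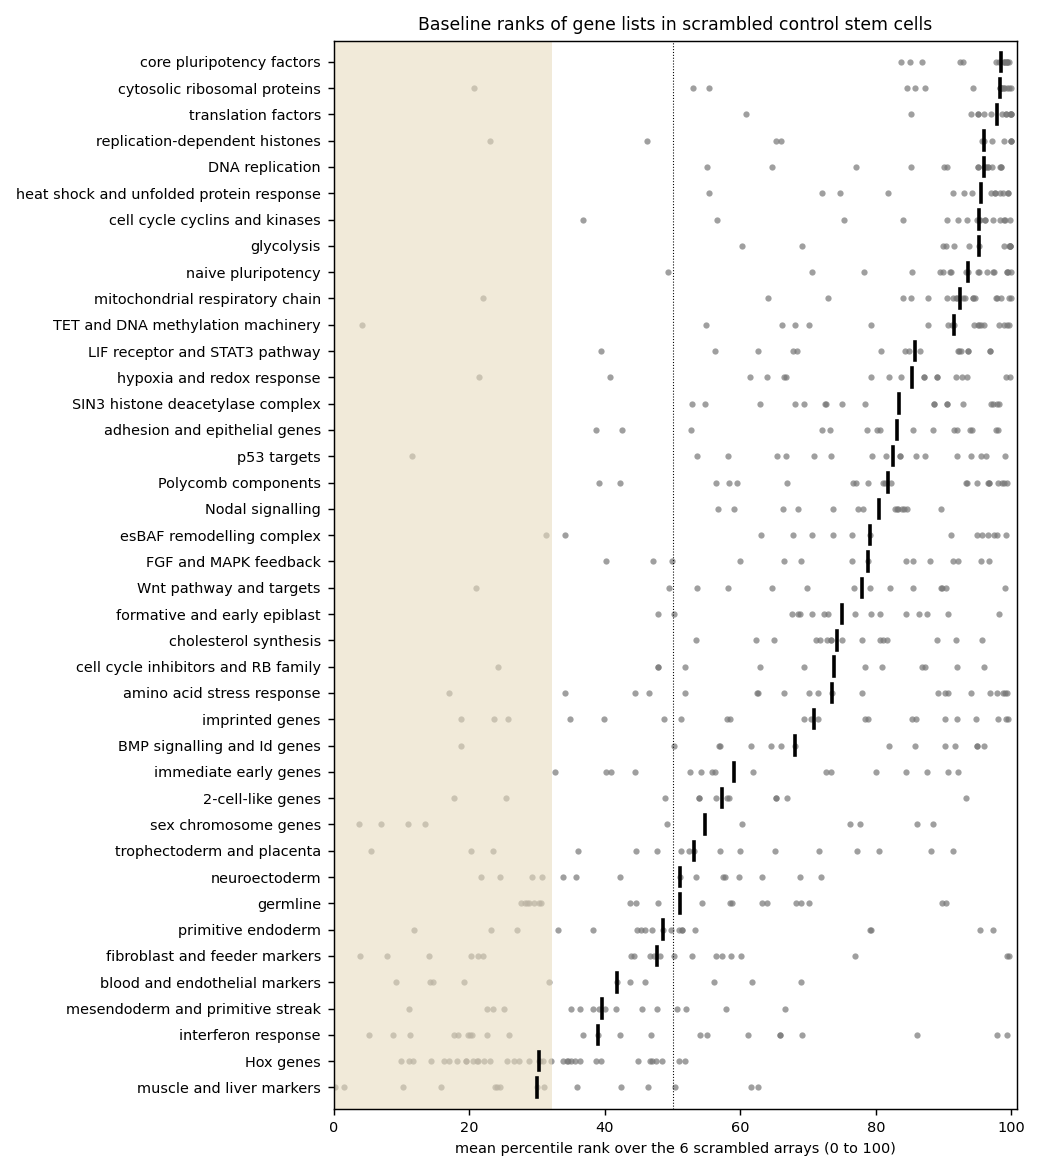
Mean percentile rank over the 6 scrambled arrays (horizontal axis, 0 to 100) for every measured member of 40 gene lists (grey points, 1 per gene), with black bars at list medians, the dotted line at the middle rank of 50 and shading up to the highest receptor level of the 6 arrays, 32.2. Core pluripotency factors, ribosomal proteins and translation factors form the top lines, and the Hox genes and the muscle and liver markers the bottom lines.

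Fibroblast markers were examined because feeder cells, where used, are fibroblasts. Of 20 measured members 14 were above the receptor level in all arrays (70%, against 65.6% of all probe sets). Lum (4.51 and 3.36), Fap (7.05 and 8.61), Postn (13.75 and 14.27), Prrx1 (19.8 and 20.9) and Dcn (21.8 and 20.8) were not. The collagen genes Col1a1, Col1a2 and Col3a1, given below, ranked near or above the middle of the arrays. Fn1 (99.7 and 99.7) and Vim (99 and 99.7), which embryonic stem cells also make, were high. The list median ranged from 44.7 to 47.2 over the Tet1-set controls and from 49.1 to 51.2 over the Sin3A-set controls. The interferon response, which virus entry can induce, had a list median of 37.2 and 39.6 over 23 genes. Of these 13 were above the receptor level in all arrays, and the membrane protein genes Ifitm1 (99.3 and 99.3) and Ifitm3 (97.2 and 98.5), known to be made by pluripotent cells without infection, ranked at 90 or more in both groups. Mx1 (4.00 and 6.37), Ifit3 (12.4 and 10.2) and Ifit1 (21.2 and 18.9), among its most inducible members, were not above the receptor level in all arrays.

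Genes that bear on known features of the line were also examined. E14TG2a is a male line selected for loss of Hprt, the purine salvage enzyme gene, through a deletion at the 5′ end of the gene. Hprt ranked at 6.06, 6.06 and 6.26 in the Tet1-set controls and at 7.74, 7.79 and 8.14 in the Sin3A-set controls, close to the median of the receptor genes, and its promoter in the reference genome, shown above, has 22 CpG. As with Rps6, such a rank does not show that the gene is off, and the part of the deletion in it was not tested. The Y-linked genes Eif2s3y (76.2 and 76.2) and Uty (80.4 and 74.8) were well above the receptor level, while Kdm5d (11.2 and 10.6) and Usp9y (3.06 and 4.47) were not. Xist, the RNA that coats the inactive X of females, ranked at 14.0 and 13.0.

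The ranks of a few genes of middle level varied between arrays of 1 group. In the Tet1-set controls the widest spreads among genes with a mean rank over 50 came from replicate 2. Top2b, a topoisomerase, ranked at 61.0, 47.3 and 60.2, and Cep44, a centriole protein, at 58.5, 45.2 and 57.8, so that replicate 2 was low in both. Abracl, Zfp949 and Zfp617 had the same order, with replicate 2 between 41.7 and 46.5 and the other arrays between 54.1 and 59.9. In the Sin3A-set controls the widest spread was that of H2az1, a histone variant gene, at 54.0, 70.1 and 55.4. Typical spreads were small, with a median SD of 1.15 points in the Tet1-set and 0.883 points in the Sin3A-set controls. In 2131 probe sets (10.05%) of the Tet1-set controls at least 2 of the 3 deposited values were identical, against 0 in the Sin3A-set controls, and the sources used here do not say how these ties arose.

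The difference between the control groups was tested on the ranks with limma, with the Benjamini-Hochberg adjustment taken over all 21212 probe sets, and a probe set is called where the adjusted p is under 0.05. Positive differences mean a higher rank in the Sin3A-set controls. The absolute difference had a median of 2.04 points, a 90th percentile of 6.12 and a 99th percentile of 11.7, and the signed differences ranged from -28.2 to 38.1. Of the 21212 probe sets 6854 (32.3%) were called, 3530 higher (16.6%) and 3324 lower (15.7%) in the Sin3A-set controls. A difference of at least 10 points was called for 406 probe sets (1.91%), 210 higher (0.99%) and 196 lower (0.924%). The groups did not overlap in 10743 probe sets (50.6%), with the Sin3A-set controls wholly higher in 25.7% of all probe sets and wholly lower in 24.9%. Of 2110 probe sets with a mean rank of at least 90 in each group, 1924 had one in both.

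The number of calls depended on single arrays. Without replicate 1 of the Sin3A-set controls 3914 probe sets were called, without replicate 3 of that group 4484 and without replicate 3 of the Tet1-set controls 4511. Centring each array's log2 values on its median in place of ranking, which moved the median difference of all probe sets to -0.07 on the log2 scale, gave 3109 higher and 5818 lower calls, so the balance of directions depends on the scaling. Calls were fewest at the top of the arrays, where ranks are compressed, with 17.4% of bin 10 called against 37.6% of bin 8. Of the receptor probe sets 358 (28.4%) were called, nearly the share of all probe sets, and 14 of them differed by at least 10 points. Among probe sets with identical values within the Tet1-set controls 38.2% were called, against 31.7% of the others. The part of the set's processing in these calls was not tested.

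**Figure D2:**
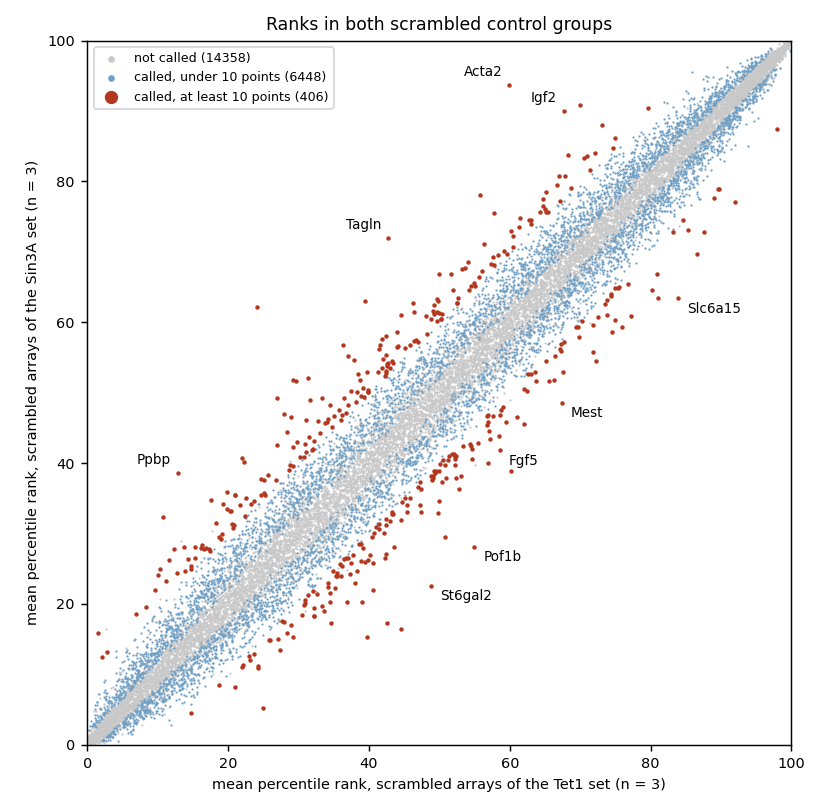
Mean percentile rank of each of 21212 probe sets in the Tet1-set controls (horizontal axis, n = 3) and the Sin3A-set controls (vertical axis, n = 3), coloured by the limma call on ranks. Most points lie along the diagonal, and the 406 red points, called with a difference of at least 10 points, lie mainly in the middle of the range.

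For scale, the same test was run within each set, between its own controls and its knockdown arrays. It called 1557 probe sets (7.34%) for Tet1 shRNA 4, 2117 (9.98%) for Tet1 shRNA 5 and 4883 (23%) for the Sin3A shRNA, of which 328, 330 and 415 differed by at least 10 points (1.55%, 1.56% and 1.96%). The median absolute difference was 1.13, 1.17 and 1.31 points, against 2.04 points between the controls. These comparisons use the same control arrays as the comparison between the groups and are not independent of it. Their counts also moved when 1 array was left out, to 588 to 1403 for Tet1 shRNA 4, 976 to 2554 for Tet1 shRNA 5 and 2890 to 4359 for the Sin3A shRNA. The lowest came without replicate 1 of Tet1 shRNA 4, replicate 2 of Tet1 shRNA 5 and replicate 2 of the Sin3A shRNA.

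Genes of contractile actin filaments led the genes that ranked higher in the Sin3A-set controls. Acta2, smooth muscle actin, ranked at 59.6, 61.1 and 59.1 in the Tet1-set controls and at 94.1, 93.2 and 94.0 in the Sin3A-set controls. The groups lay far apart, by 33.8 ± 0.67 points (limma adjusted p = 0.000173). When the 6 columns were quantile-normalized together, this was a difference of 2.91 ± 0.07 on the log2 scale. Tagln, transgelin, an actin-binding protein of the same filaments, ranked at 43.9, 41.2 and 43.2 and at 72.0, 71.5 and 72.5, a difference of 29.2 ± 0.82 points (limma adjusted p = 0.000497) and of 1.94 ± 0.06 on the log2 scale. Both are usual targets of the serum response factor and its co-factors. A list of 17 measured smooth muscle and actin cytoskeleton genes was drawn up after these values had been seen, so its count is a description only. In it 9 were called higher, none lower and 8 were not called (52.9% called, against 32.3% of all probe sets, 16.6% higher). The median difference was 3.47 points, against -0.03 for all probe sets. Leaving out 1 array gave 7 to 9 calls, all higher. Myl9, a myosin light chain, was higher by 12.6 points (49.1 ± 1.6 to 61.6 ± 0.83), Tpm2, a tropomyosin, by 9.93 points, Vcl, vinculin, by 7.51 points and Thbs1, thrombospondin, by 8.21 points. The smooth muscle myosin gene Myh11, a marker of the mature cell type, ranked at 39.1 and 40.1 and was not called.

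The other genes with the largest differences in this direction had varied roles. Igf2, an imprinted growth factor of the embryo, ranked at 66.6, 70.3 and 66.1 in the Tet1-set and at 90.3, 89.6 and 90.2 in the Sin3A-set controls, a difference of 22.4 ± 1.2 points (limma adjusted p = 0.00106) and of 1.85 ± 0.09 on the log2 scale. Pmp22, a membrane protein of myelin, ranked at 68.0, 71.4 and 70.6 and at 91.1, 90.6 and 90.8. Neither gene had overlapping groups, and both were near the top of the Sin3A-set arrays. Cryab, a small heat shock protein, was higher by 22.3 points, Prmt8, an arginine methyltransferase, by 23.6, Timp2, an inhibitor of matrix proteases, by 22.3, Anxa1, an annexin, by 22.7, Cerkl by 22.1 and Csf1, a macrophage growth factor, by 20.7. Ppbp, a platelet chemokine, ranked at 12.9 and 38.5 and Gzme, a granzyme, at 10.7 and 32.3, so that in the Tet1-set controls both lay below the receptor level. Acta2, Tagln and these 10 genes, the 12 with the largest differences in this direction, kept their limma call whichever of the 6 arrays was left out, with an adjusted p of at most 0.0164.

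Some genes of polarised epithelium ranked lower in the Sin3A-set controls, while a broader list of adhesion and epithelial genes had few calls in either direction. Pof1b, an actin-binding protein of epithelial junctions, ranked at 57.4, 50.9 and 56.6 in the Tet1-set and at 24.2, 35.5 and 24.5 in the Sin3A-set controls, a difference of -26.9 ± 3.6 points (limma adjusted p = 0.00505). Replicate 2 of each group was the one nearest to the other group. Mal2, a protein of apical transport, ranked at 56.2, 44.9 and 51.1 and at 35, 28.2 and 25.2. A list of 15 measured genes of polarised epithelium was also drawn up after these values had been seen and is described only. It held 8 lower, 3 higher and 4 uncalled genes (73.3% called, against 32.3% of all probe sets, 15.7% lower). The median difference of the list was -4.60 points. Leaving out 1 array gave 8 to 13 calls, with 7 to 10 lower and 1 to 3 higher. Rab25 (62.0 to 45.5) and Ap1m2 (74.5 to 58.6), which sort cargo to epithelial membranes, and Esrp1 (89.6 to 79.0), which sets epithelial splicing, were lower, and Spint1, a protease inhibitor, was at 89.8 and 94.6. E-cadherin (Cdh1), the adhesion protein of these cells, ranked at 98.1 and 98, and Epcam at 81.7 and 79.6, and neither was called. Both belong to the broader list, in which 1 of 16 genes was lower, 3 were higher and 12 were not called (25% called, against 32.3% of all probe sets), with a median difference of -0.01 points. Its lower member was the tight junction gene Cldn6 (93.4 to 90.6), and its largest difference that of the protocadherin gene Pcdh1, higher by 11.3 points (33.0 to 44.3).

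The other genes that ranked lower by the most had varied roles. St6gal2, a sialyltransferase, ranked at 50.2, 48.7 and 47.4 in the Tet1-set and at 23.3, 23.0 and 21.4 in the Sin3A-set controls (-26.2 ± 0.94 points, limma adjusted p = 0.000954). Hopx, a homeodomain protein without DNA binding, was at 60.2 and 38.8, Slc6a15, an amino acid transporter, at 83.9 and 63.4, Ephx2, an epoxide hydrolase, at 81.0 and 63.4, Rbms3, an RNA-binding protein, at 38.9 and 20.3, Zfp951 at 40.5 and 22 and Mug1, a protease inhibitor of serum, at 36.9 and 20.2. Snora70, a small nucleolar RNA, ranked at 37.7, 51.8 and 29.6 against 16.0, 14.8 and 15.1 (-24.4 ± 5.4 points, limma adjusted p = 0.0217). The 3 Tet1-set arrays were spread widely, and the call was lost without replicate 1 of the Tet1-set controls or without any 1 array of the Sin3A-set controls, with an adjusted p of up to 0.0658. The other 11 of these 12 genes kept their call whichever array was left out.

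**Figure D3:**
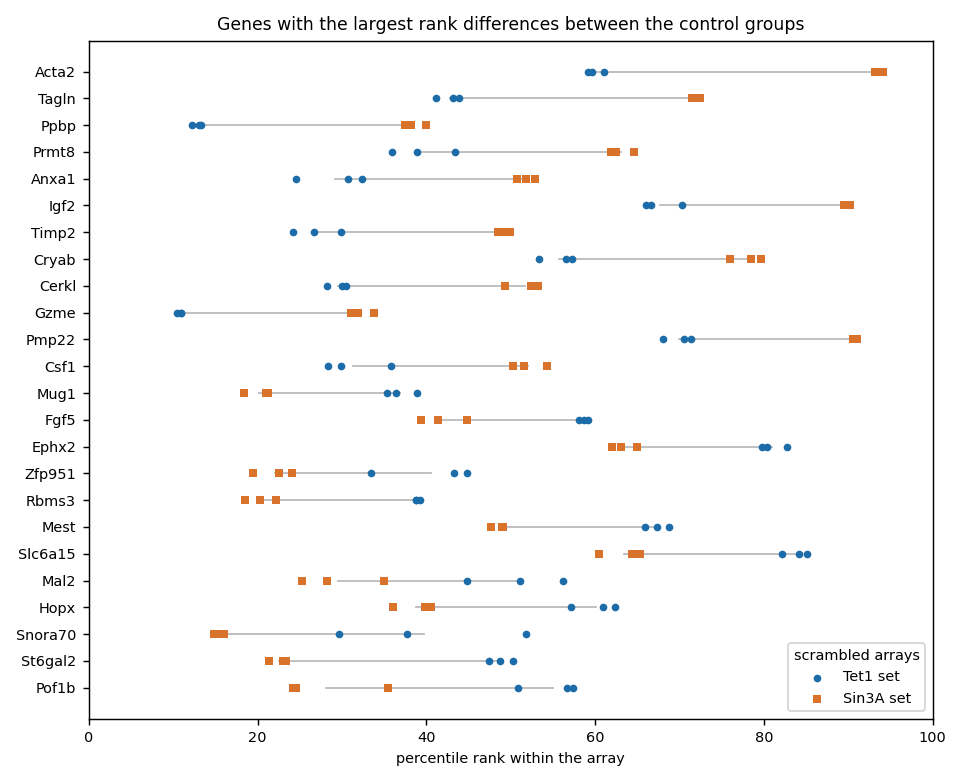
Percentile rank in each of the 6 scrambled arrays (circles, Tet1-set controls; squares, Sin3A-set controls) for the 12 genes with the largest differences in each direction, with a line between the group means. Groups do not overlap in any row, and Acta2 has the widest separation, from about 59.9 to 93.8.

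At the very top of the arrays differences were small in points. The largest called ones with a rank of at least 90 in both groups were those of Cenpm, a centromere protein (90.8 to 95.1), Abcf2, an ATPase (91.6 to 95.8), Sf3a2, a splicing factor (92.7 to 96.8), Csnk1e, a casein kinase (90.7 to 94.4), Ndufb6, a subunit of respiratory complex I (95.8 to 91.9), and Myc, the growth factor-responsive transcription factor (94.0 to 90.3). On the log2 scale after joint normalization they ranged from -0.63 ± 0.06 for Ndufb6 to 0.73 ± 0.07 for Sf3a2.

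How many pluripotency genes differed between the control groups depended on the scale. Most of them lie where ranks leave little room for a difference, so a gene that was not called on ranks is not shown to be alike in both groups. In the core list 1 of 14 genes was called (7.14%, against 32.3% of all probe sets and 17.4% of bin 10). It was L1td1, an RNA-binding protein, which differed by -4.18 points (88.3, 85.8 and 87.5 against 83.3, 82.7 and 83.1, limma adjusted p = 0.0107). Without replicate 2 of the Tet1-set controls a second gene was called. After joint quantile normalization 4 of the 14 were called. L1td1, the growth factor gene Fgf4 (-0.29 ± 0.07 on the log2 scale) and Tdgf1 (-0.22 ± 0.07) were lower, and Utf1, a chromatin-bound factor of these cells, was higher (0.54 ± 0.11). On that scale Nanog differed by -0.04 ± 0.06, Pou5f1 by -0.06 ± 0.06 and Sox2 by -0.08 ± 0.06, and these 3 were not called. After centring each array's log2 values on its median, 10 of the 14 were called, all lower, Nanog, Pou5f1 and Sox2 among them, but so were 13 of 14 translation factors, of which none was called on ranks or after joint normalization. In the naive list 4 of 19 were called (21.1%), 7 after joint quantile normalization and 15 after median centring. The count on ranks fell to between 1 and 2 without any 1 array other than replicate 2 of the Tet1-set controls. Gbx2, a homeobox gene that LIF induces, kept its call whichever array was left out and ranked higher, at 82.1, 83.3 and 81.7 against 87.6, 88.2 and 89.1 (5.96 ± 0.67 points, limma adjusted p = 0.00345). Klf4 (-0.14 ± 0.07 on the log2 scale after joint normalization), Esrrb (-0.09 ± 0.07) and Zfp42 (-0.12 ± 0.06) were not called on ranks or on that scale.

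Genes of the formative state were chiefly lower in the Sin3A-set controls. Of 16 genes 9 were lower, 2 higher and 5 not called (68.8% called, against 32.3% of all probe sets), with a median difference of -3.32 points against -0.03 for all probe sets. Without replicate 1 of the Sin3A-set controls 7 of the 16 were called. This and the other lists were chosen with earlier results of these data known, so the shares called in them are descriptions only. Fgf5 ranked at 59.1, 58.1 and 58.6 in the Tet1-set and at 41.4, 39.4 and 44.8 in the Sin3A-set controls (-16.8 ± 1.4 points, limma adjusted p = 0.002). Fgf15, another FGF of the early epiblast, ranked at 75, 74.9 and 75 and at 60.9, 58.4 and 61.8 (-14.6 ± 0.94 points, limma adjusted p = 0.00127). Grhl2, which opens epithelial enhancers in the formative state, was at 74.2, 73.0 and 74.2 and at 63.0, 62.7 and 63.7 (-10.7 ± 0.56 points, limma adjusted p = 0.00106). All 3 genes had groups that lay clearly apart. Lef1, a partner of beta-catenin, differed by -8.09 points, the forkhead factor gene Foxd3 by -5.94 and the methyltransferase gene Dnmt3b by -3.04. The members in the other direction were Cdh2, N-cadherin, higher by 7.26 points, and Dnmt3a, which was called higher by 2.56 points (limma adjusted p = 0.0145) and lost its call without replicate 3 of the Tet1-set or replicate 1 or 3 of the Sin3A-set controls, with an adjusted p of up to 0.0585. Its call was also lost after median centring. Zic2 and Dusp6, a MAP kinase phosphatase, were not called (0.06 and -1.05 points).

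Members of the FGF and MAP kinase pathway moved in both directions. Of 15 genes of FGF and MAP kinase signalling 7 were lower, 4 higher and 4 not called (73.3% called, against 32.3% of all probe sets), and the count of 11 calls fell to 6 without replicate 3 of the Tet1-set and to 7 without replicate 2 of the Sin3A-set controls. Egr1, an immediate early transcription factor, ranked at 90.8, 93.1 and 91.9 in the Tet1-set and at 76.8, 77.0 and 77.4 in the Sin3A-set controls (-14.9 ± 0.67 points, limma adjusted p = 0.000983), which was -1.41 ± 0.08 on the log2 scale. Spry2, a feedback inhibitor of receptor tyrosine kinases, differed by -4.27 points (87.6 and 83.3). Etv4, an ETS factor induced by the pathway, was higher by 8.30 points, from 62.3 to 70.6, and Map2k1, the kinase MEK1, by 4.59 points. Of 16 immediate early genes 3 were lower, 4 higher and 9 not called (43.8% called). Fos was at 43.3 and 37.0 and not called, while Ccn1 (68.4 to 76.8) and Ccn2 (88.2 to 93.1), matrix proteins induced by serum and by YAP, were higher.

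Pathways of LIF and of the TGF-beta family differed in single members. In the LIF list 5 genes were higher, 1 lower and 10 not called (37.5% called, against 32.3% of all probe sets). The count fell from 6 to 3 without replicate 1 or 3 of the Tet1-set or replicate 1 of the Sin3A-set controls. The kinase genes Jak1 (81.0, 81.2 and 82.0 against 87.9, 86.7 and 86.8) and Tyk2 (64.8, 64.7 and 65.0 against 70.5, 70.8 and 70.3) were each higher with no overlap, by 5.75 and 5.70 points (limma adjusted p = 0.00253 and 0.00161). Lifr, Il6st and Stat3 were not called on ranks, but Stat3 was called higher after joint quantile normalization. In the Nodal list 4 of 14 were higher and 3 lower (50% called), and the count of 7 fell to between 3 and 4 without any 1 array of the Sin3A-set controls. Lefty2, a Nodal antagonist and target, ranked at 60.9, 68.6 and 69.2 against 50.2, 53.7 and 51.5 (-14.4 ± 2.4 points, limma adjusted p = 0.00944). Furin, a protease that activates Nodal, ranked at 62.4, 64.0 and 62.9 against 74.4, 74.1 and 73.5 (10.9 ± 0.59 points, limma adjusted p = 0.00106). In the BMP and Id list 3 of 15 were called on ranks (20% called). After joint quantile normalization 3 were higher and 3 lower, Id2 and Id3 among the lower ones, so this share depends on the scale. Smad4, the shared signal transducer, was higher by 2.87 points, a call lost after median centring (0.16 on the log2 scale, limma adjusted p = 0.0649), and Dusp9, a phosphatase that BMP4 induces, by 4.62.

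Keratins of simple epithelium ranked higher in the Sin3A-set controls. In the trophectoderm list 8 of 17 genes were higher, 1 lower and 8 not called (52.9% called, against 32.3% of all probe sets), with a median difference of 2.15 points. Without replicate 1 of the Tet1-set or any 1 array of the Sin3A-set controls 5 were called higher. The list median ranged from 51.9 to 53.5 over the Tet1-set and from 55.8 to 59.8 over the Sin3A-set controls. Krt18 ranked at 70.9, 75.3 and 72.9 against 88.0, 86.5 and 89.5 (15.0 ± 1.4 points, limma adjusted p = 0.00234). Its partner Krt8 ranked at 86.0, 90.4 and 87.1 against 95.2, 95.4 and 94.5 (7.21 ± 1.2 points, limma adjusted p = 0.00896). Krt19 was higher by 8.66 points and the trophoblast factor gene Hand1 by 10.1. Ascl2, an imprinted factor of the placenta, went the other way, at 57.3, 58.4 and 59.8 against 44.3, 44.4 and 42.7 (-14.7 ± 0.86 points, limma adjusted p = 0.00106). The factors that set up this lineage were not called, Cdx2 at 37.0 and 35.2, Eomes at 48.7 and 46.6 and Gata3 at 44.8 and 44.3, and its placental marker Tpbpa (4.57 and 6.59) was not above the receptor level. The part of other cell types in the keratin difference was not tested.

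In the fibroblast list 4 of 20 genes were higher, 2 lower and 14 not called (30% called, against 32.3% of all probe sets), and the count of 6 fell to 3 without replicate 1 of the Sin3A-set controls. Acta2 and Tagln, given above, belong to it, and Pdgfrb, a receptor of mesenchymal cells, was higher by 11.3 points (43.0, 42.7 and 41.8 against 53.6, 53.8 and 53.9, limma adjusted p = 0.000983). The collagen genes Col1a1 (57.7 and 62.4), Col1a2 (51.4 and 54.3) and Col3a1 (46.5 and 46.9) were not called, nor were Lum, Dcn, Fap, Postn and Prrx1, which stayed below the receptor level in both groups. The part of a few fibroblast-like cells in the Acta2 and Tagln difference was not tested.

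**Figure D4:**
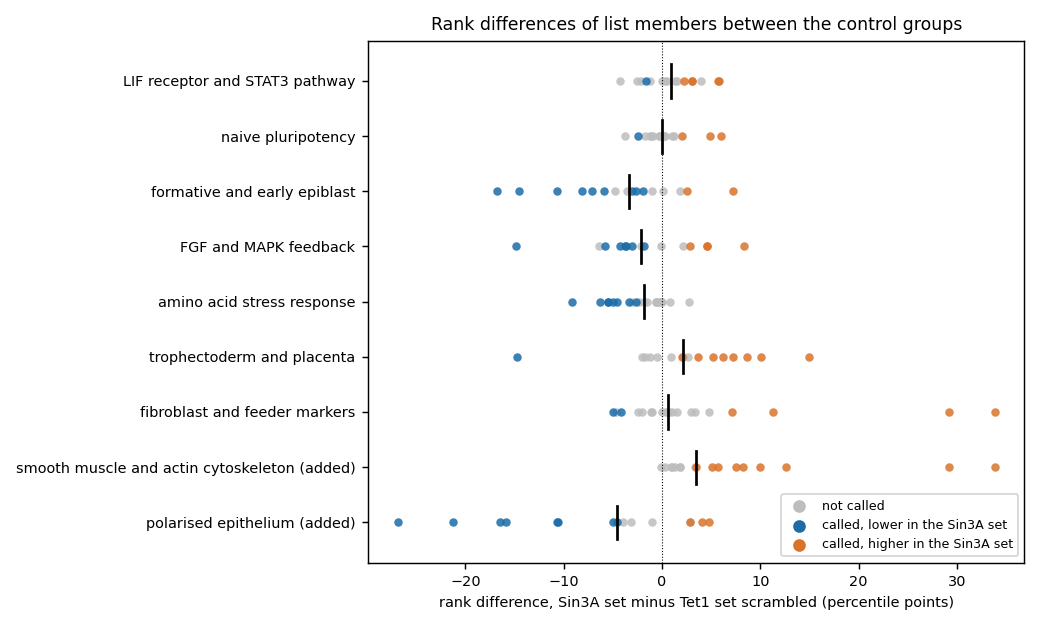
Difference in mean rank between the control groups (horizontal axis, Sin3A set minus Tet1 set, in percentile points) for each member of 9 lists, coloured by the limma call, with black bars at list medians. The formative and epithelial lines extend mainly to the left and the fibroblast and smooth muscle lines mainly to the right. The trophectoderm line extends to both sides. The 2 lists named as added were chosen after the values had been seen, and the others with earlier results of these data known.

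Imprinted genes and genes of the 2-cell stage differed in single members or families. Of 22 imprinted genes 3 were higher, 6 lower and 13 not called (40.9% called, against 32.3% of all probe sets), and the count of 9 fell to 5 without replicate 1 of the Sin3A-set controls. Besides Igf2 and Ascl2, Mest, an imprinted hydrolase gene, ranked at 68.7, 66.0 and 67.4 against 47.7, 48.9 and 49.1 (-18.8 ± 0.86 points, limma adjusted p = 0.000983). Peg10 (99.6 and 99.5), Grb10 (94.9 and 94.5), Igf2r (85.7 and 86.1) and Dlk1 (70.3 and 70.4) were not called. Of 12 genes of the 2-cell-like state 5 were higher and 2 lower (58.3% called), and 6 to 7 were called whichever array was left out. The Usp17-like deubiquitinase genes Usp17la (46.4 to 61.5), Usp17lb (51.9 to 64.6) and Usp17le (42.4 to 55.4) were higher, by 15.1, 12.7 and 12.9 points. They are near-identical copies whose probes can share RNA, so they do not count as separate genes. Zfp352, another gene of that stage, ranked at 56.4 in both groups.

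Stress and metabolic genes gave a few large differences. Mt1, a metallothionein induced by zinc, ranked at 97.4, 98.5 and 97.9 against 86.2, 88.7 and 87.5 (-10.5 ± 0.76 points, limma adjusted p = 0.00161), which was -1.68 ± 0.10 on the log2 scale. Of 21 genes of the amino acid stress response, which ATF4 directs, 8 were lower, none higher and 13 not called (38.1% called, against 32.3% of all probe sets, of which 15.7% were lower), with a median difference of -1.83 points. The count fell to 3 without replicate 1 and to 5 without replicate 2 or 3 of the Sin3A-set controls. Cth, a cysteine synthesis enzyme, differed by -5.00 points (91.7 and 86.7) and Phgdh, the first enzyme of serine synthesis, by -5.51 (74.2 and 68.7), while Asns (98.9 and 98.7) and Psat1 (97.9 and 97.8) were not called. Pgk1, a glycolytic kinase, ranked at 66.7, 67.6 and 68.3 against 49.9, 55.4 and 53.4 (-14.6 ± 1.5 points, limma adjusted p = 0.00269), and Ldhb, a lactate dehydrogenase subunit, was higher by 6.77 points. Of 13 glycolysis genes 2 were higher, 3 lower and 8 not called (38.5% called, against 32.3% of all probe sets). Whichever array was left out, 3 of the 13 were called. The glycolytic genes Aldoa (99.8 and 99.8), Pkm (99.6 and 99.6) and Tpi1 (98.7 and 99.2), at the top of the arrays where ranks are compressed, were not called. Txnip, which glucose induces, was higher by 5.97 points and Vegfa, a hypoxia target, by 8.48.

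On ranks, the Polycomb, SIN3 and cyclin lists had calls at about the background share or less, and the cell cycle inhibitors above it. Of 22 Polycomb genes 6 were lower and 1 higher (31.8% called against 32.3% of all probe sets), with Kdm2b, which recruits a Polycomb complex to CpG islands, at -6.23 points and Cbx6 at -6.17. Of 18 genes of the SIN3 complex 5 were called (27.8%), with Brms1, a subunit, higher by 9.47 points, and the count fell to between 1 and 3 without any 1 array other than replicate 2 of the Tet1-set controls. Of 17 cyclins and kinases of the cell cycle 3 were called (17.6%), with Ccnd2 higher by 5.31 points, Ccna1, a cyclin of the germline, by 11.9, and Ccne2 at -8.05, while Cdk1, Cdk4 and Ccna2 were not. Of 12 cell cycle inhibitors and RB family genes 5 were higher, 1 lower and 6 not called (50% called), with a median difference of 3.01 points, and the count of 6 fell to 3 without replicate 1 of the Sin3A-set controls. The inhibitor gene Cdkn1b was higher by 6.46 points (77.6 to 84.1, limma adjusted p = 0.0014) and Cdkn2a differed by -5.09 (50.5 and 45.4). The 14 translation factors differed by -0.99 to 3.93 points, with a median absolute difference of 0.20 points.

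The knockdown arrays deposited with each control group show the same genes in other cells of the set. Over all 15 arrays, 4727 probe sets (22.3%) had the 9 arrays of the Tet1 set wholly on 1 side of the 6 arrays of the Sin3A set. Among the called probe sets this held for 3775 of 6854 (55.1%), and among those with at least 10 points for 281 of 406 (69.2%). The same control arrays enter both counts, so the shares only describe how often a difference between controls runs through the whole set. Acta2 lay between 38.0 and 43.6 in the 6 Tet1 knockdown arrays and between 89.0 and 89.8 in the Sin3A knockdown arrays, on the same side as the controls of its set. Egr1 lay between 83.9 and 90.2 and between 68.9 and 73.4, and Mt1 between 94.8 and 97.4 and between 66.4 and 72.8. Tagln kept the sets apart only narrowly, since the Sin3A knockdown arrays (44.9 to 46.8) lay near the Tet1-set controls (41.2 to 43.9). Krt18 lay between 57.5 and 61.5 in the Tet1 knockdown arrays and between 77.0 and 81.2 in the Sin3A knockdown arrays, below the controls of its own set in both. It too kept the sets apart only narrowly, since replicate 2 of the Tet1-set controls was at 75.3.

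**Figure D5:**
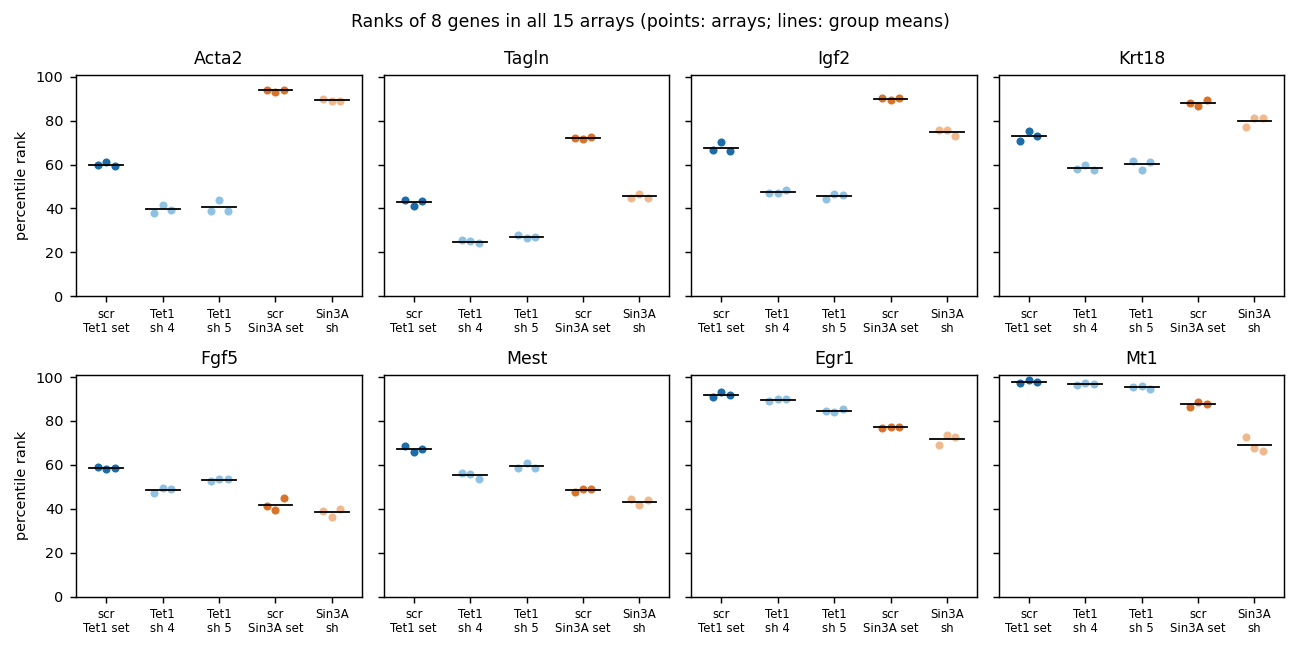
Percentile rank (vertical axes, 0 to 100) of 8 genes in all 15 arrays by group, with 1 point per array and a line at each group mean (n = 3); darker points are the scrambled controls. Each of the 8 genes keeps the 9 arrays of the Tet1 set apart from the 6 of the Sin3A set. The gap is narrowest for Tagln and Krt18, whose Sin3A knockdown arrays come close to the Tet1-set controls, and is also small for Fgf5 and Igf2.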

How the data were processed

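Total RNA of 15 samples was biotin-labelled (Whole Transcript Assay Kit, Affymetrix) and read on 1-colour arrays, per the labels' protocols. The table deposited by the authors gives a log2 value for 21212 probe sets, identified by Entrez number. The submitters' processing notes name affy, RMA and limma without versions or an order. The genome build and the settings are not given in the sources used here. Column means differ between the sets, so levels were compared as ranks.

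Values were turned into percentile ranks within each array (pandas 2.3.3, average ranks for ties). The control groups were compared by moderated linear models (limma 3.58.1, R 4.3.3; two-sided, n = 3 per group), after a check on simulated data. An exact permutation test of 3 against 3 arrays cannot go below 0.1 and was not used. For a gene with several probe sets, the one with the highest mean was taken. Gene symbols come from the platform annotation, and 18775 entries have the same symbol in RefSeq (GRCm38.p6). Of 751 symbols in 40 lists 679 were matched, giving 654 genes, 20 of them in more than 1 list. Members and lists were chosen with earlier results of these data known. Genes named are list members, the 12 highest ranks, the 12 highest and 12 lowest differences among called probe sets without overlap, the 6 largest called differences among ranks of at least 90, the 5 widest spreads per group over rank 50, and Tet1, Sin3a and Hprt. Probe sets without exactly 1 symbol and RIKEN, Gm and receptor names were left out of the ranked choices, so unnamed probe sets can differ by more. Alternatives were normal scores, joint quantile normalization, median centring, a filter on low values, ranks over named probe sets, an intensity trend, a replicate block and each array left out. The number of arrays limits the precision.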

Additional observations from a re-analysis of the deposited data

How the results depend on the processing

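The count of called differences between the control groups was 6854, and it was 7573 with normal scores, 7771 after joint quantile normalization, 8927 after median centring, 7640 with an intensity trend, 4837 of 15025 probe sets after the filter on low values and 6290 of 18786 over probe sets with 1 symbol. Median centring raised the lower calls to 5818. Leaving out 1 array gave 3914 to 7476 calls, 2021 to 3778 of them higher and 1893 to 3698 lower. The counts of differences of at least 10 points stayed within 1.5 times their main value in every setting run. Replicate numbers did not pair the controls: the deviations of same-numbered arrays correlated at -0.043, -0.388 and -0.215, and those of different numbers between -0.293 and 0.357. With the replicate number as a block 3443 probe sets were called (1821 higher, 1622 lower), of which 3387 were among the main calls, and within the sets the block gave 1702 for Tet1 shRNA 4, 681 for Tet1 shRNA 5 and 3018 for the Sin3A shRNA. Leaving out 1 array gave 588 to 1403, 976 to 2554 and 2890 to 4359 for these. Of the 190 genes named, 92 were called on ranks, and 83 of these kept their call whichever array was left out. Median centring ended the call of Dnmt3a (0.08 on the log2 scale), Smad4 (0.16) and Sparc, whose sign also turned (-0.000975, limma adjusted p = 0.991), and the block that of 11. Normal scores, joint quantile normalization, ranks over probe sets with 1 symbol and the intensity trend ended none of the 92 calls, and the filter none of the 87 it kept. Of the 98 not called, 22 were called with normal scores, 19 after joint quantile normalization, 17 with an intensity trend and 60 after median centring, and 38 changed sign in at least 1 setting. Leaving out 1 array moved list medians of rank by -0.98 to 1.33 points. The rank test is insensitive at the top of the arrays, where Tet1 and Sin3a were called under normal scores, joint quantile normalization and median centring, and Sin3a also with an intensity trend, and low ranks cannot be read as absence. The leave-one-out and block fits within the sets were added after the data had been seen.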
